A study of Arabidopsis thaliana with 4 samples.

Results

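The 63 gene models described here are those whose deposited description holds the word kinase, out of 1518 models in 2 tables of Cd responses in Arabidopsis thaliana roots. Members are 38 of the 1001 models listed for ein3eil1, 35 of the 807 listed for Col, and 10 of the 290 listed for both. The 10 shared members make 26.3% of the ein3eil1 members and 28.6% of the Col members. The groups are ein3eil1 given 150 µM CdSO4 for 6 h, untreated ein3eil1, Col given the same Cd treatment, and untreated Col, each with 1 library. All seedlings were 5 days old and grown on MS medium. The mutant carries ein3-1 and eil1-1, Col is the wild type, and the controls are labelled only as having no treatment, and the labels do not say if they were handled over the same 6 h. The labels name root tip and primary root, and 1 protocol line speaks of shoots as well as roots. In whole-root RNA, fewer cells of a type and less RNA per cell cannot be told apart.

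Protein kinases pass on signals by putting phosphate on other proteins. Receptor-like kinases sit in the plasma membrane with an outer part that senses a ligand or the wall and an inner kinase part, and are named for the outer part: leucine-rich repeats, lectin folds, wall-bound domains or, in the cysteine-rich receptor-like kinases (CRKs), the DUF26 domain with its conserved cysteines. Many CRK genes are known to respond to pathogens, salicylic acid and reactive oxygen species. EIN3 and EIL1 are transcription factors at the end of the ethylene pathway, which itself starts at receptors related to histidine kinases and passes through the kinase CTR1.

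The word kinase gathers more than signalling proteins. By the TAIR10.1 annotation, 40 of the 63 models have a protein kinase domain. By description, 12 are kinases of small molecules or lipids, and 2 are no kinases: KRP5, an inhibitor of cyclin-dependent kinases, and NET3C, described as kinase interacting. AT2G29010 and PERK2 are pseudogenes in the annotation. The classes held 8 leucine-rich repeat models, 5 CRK, 3 lectin, 1 wall-associated, 1 MAP kinase and 0 calcium-dependent models, and 45 fell to the rest. The rest was split by description into 18 unspecified protein kinases, 12 small-molecule or lipid kinases, 7 receptor-like models, 4 CBL-interacting or SNF1-related kinases, 2 histidine kinases and the 2 that are no kinases.

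The libraries held 16802110 reads in ein3eil1 with Cd, 16993296 in ein3eil1 control, 16773595 in Col with Cd and 19192279 in Col control, worked out from the deposited counts and RPKM (reads scaled to model length and to the library total). With 1 library per group, every ratio compares libraries, has no replicate check and gets no test. The 95% intervals are exact counting intervals of a ratio, or normal intervals of a difference of log2 ratios, and cover counting error only. The tables list only models with a log2 ratio of at least 1 in size, and a limit on the deposited FDR may apply too. The level of an unlisted gene is therefore not known here, and its ratio may still be 2-fold or more. A model is counted as higher or lower when its RPKM differs at least 2-fold and reaches 1 RPKM in the higher library. EIN3 and EIL1 are not listed, so the genotype was not checked. As markers of other tissue, 3 of 11 photosynthesis genes were higher with Cd in ein3eil1, with a summed level of 75 RPKM against 31.4 in its control, and 0 were listed in Col. Of 6 endodermis genes, 2 were lower with Cd in ein3eil1 (74.8 against 162 RPKM summed) and 5 were lower in Col (183 against 420 RPKM). Of 4 xylem genes, 1, XCP2, was lower in ein3eil1 and 0 were listed in Col. None of 6 root hair genes and none of 7 meristem or cap genes was listed. The part of these markers in the kinase values was not tested.

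In ein3eil1, 18 of 38 members were higher with Cd and 17 lower, where 59.3% of all listed models were higher and 35.8% lower. In Col, 21 of 35 were higher and 11 lower, against 52.9% and 42.4% of all listed models. Scaling each table to the median log2 ratio of its listed models (1.16 in ein3eil1 and 1.06 in Col) left 4 members higher and 17 lower in ein3eil1, and 8 higher and 11 lower in Col. The tables hold no ratio between the thresholds, which keeps this median from measuring an error of scaling. For the same reason, subtracting a positive median could only cut the count of higher members, and could add none to the lower ones. Over members with 1 RPKM or more, the median log2 ratio was 1.04 in ein3eil1 (1.14 over all such listed models) and 1.12 in Col (1.06 over all). Kinase genes were not listed more often than other genes. Of 1388 annotated protein-coding loci with kinase in the product name, 2.67% were listed in ein3eil1 and 2.52% in Col, beside 3.48% and 2.79% of all 27444 protein-coding loci.

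**Figure D1:**
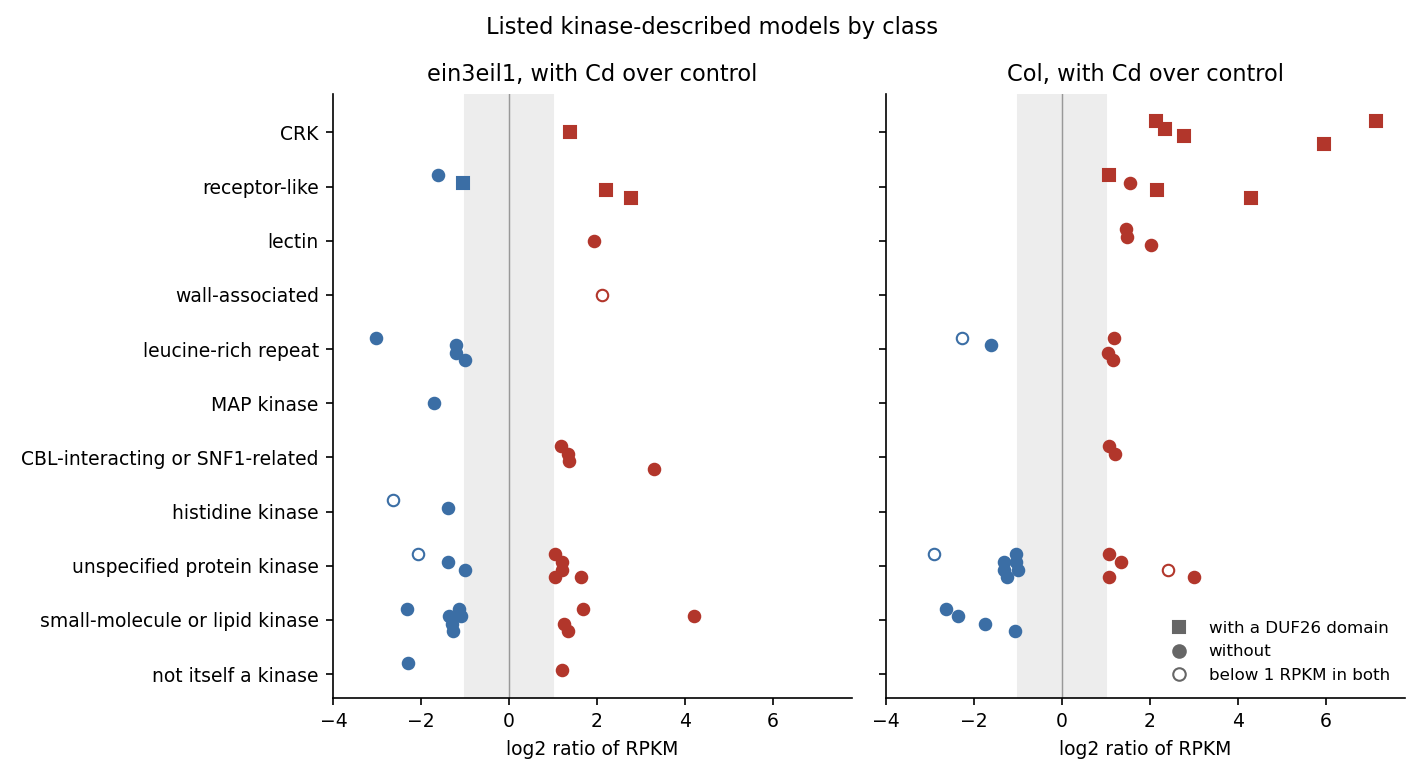
Log2 ratio of RPKM with Cd over control for every listed member, by class, in ein3eil1 and in Col. Each point is 1 model, red above 0 and blue below, squares have a DUF26 domain, open points stay below 1 RPKM, and the grey band is the range that the tables leave out. The points reach 7.15 in the CRK row of Col, and the leucine-rich repeat row of ein3eil1 holds only negative values.

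The largest log2 ratios among the members, 7.15 for CRK14 and 5.96 for CRK32, were in the CRK class in Col. Those of CRK10, CRK31 and CRK11 (2.78, 2.35 and 2.15) lay below some members of other classes. All 5 listed CRKs were higher with Cd in Col, where 52.9% of all listed models were. Their median log2 ratio was 2.78, with a summed level of 54.2 RPKM with Cd against 9.25 RPKM in the control. In the ein3eil1 table CRK11 was the only model of this class, with a log2 ratio of 1.39. The other 4 are not listed there, so their levels in ein3eil1 are not known. CRK17 and CRK9, whose descriptions omit the cysteine-rich name, were filed with the receptor-like models, but both carry CRK symbols. With them, 7 of 41 annotated CRK genes were higher in Col and 2 in ein3eil1. The shares listed of all protein-coding loci were 2.79% in Col and 3.48% in ein3eil1.

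The proximal promoters of 4 CRKs and of FRK1, a receptor-like kinase known for its induction by flagellin, are shown as examples. These genes were higher with Cd in Col. Each holds more than 1 copy of the W-box core, the letters bound by WRKY factors. CRK9, AT5G48540, EGM1 and LECRKA4.2 meet the same rule and are not shown. Each run covers the 250 bases before the annotated gene start, 5′ to 3′ on the gene's strand, in the RefSeq genome TAIR10.1. Capitals mark TTGAC, or GTCAA where the core lies on the other strand.
CRK11 (chr4:12143859-12144108, reverse strand): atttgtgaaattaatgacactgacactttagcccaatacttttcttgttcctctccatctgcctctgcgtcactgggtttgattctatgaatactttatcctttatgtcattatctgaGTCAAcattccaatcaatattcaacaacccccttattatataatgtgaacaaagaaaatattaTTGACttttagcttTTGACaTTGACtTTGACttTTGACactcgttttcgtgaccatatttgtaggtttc
CRK17 (chr4:12167027-12167276, reverse strand): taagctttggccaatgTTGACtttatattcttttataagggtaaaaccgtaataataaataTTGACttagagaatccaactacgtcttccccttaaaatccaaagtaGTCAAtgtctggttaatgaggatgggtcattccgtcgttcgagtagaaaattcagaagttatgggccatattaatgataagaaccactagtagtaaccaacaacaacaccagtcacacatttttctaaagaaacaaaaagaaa
CRK31 (chr4:6967459-6967708, forward strand): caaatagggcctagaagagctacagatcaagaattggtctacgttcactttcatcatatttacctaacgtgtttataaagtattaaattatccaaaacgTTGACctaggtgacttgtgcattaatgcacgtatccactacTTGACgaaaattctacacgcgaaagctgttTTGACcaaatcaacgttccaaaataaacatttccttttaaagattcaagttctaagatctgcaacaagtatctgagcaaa
CRK32 (chr4:6971151-6971400, forward strand): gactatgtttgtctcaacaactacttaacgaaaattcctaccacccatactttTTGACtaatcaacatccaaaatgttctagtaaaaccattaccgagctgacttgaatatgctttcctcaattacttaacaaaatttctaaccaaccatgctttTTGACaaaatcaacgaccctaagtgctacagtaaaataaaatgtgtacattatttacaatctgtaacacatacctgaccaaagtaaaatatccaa
FRK1 (chr2:8329945-8330194, reverse strand): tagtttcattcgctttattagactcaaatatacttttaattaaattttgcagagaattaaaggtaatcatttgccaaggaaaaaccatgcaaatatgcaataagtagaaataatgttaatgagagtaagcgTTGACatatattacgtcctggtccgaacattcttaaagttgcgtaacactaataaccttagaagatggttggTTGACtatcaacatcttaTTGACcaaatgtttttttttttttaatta

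In CRK11 the core occurs at 6 places, with its first base 132, 69, 55, 49, 43 and 36 bases before the start. CRK17 and CRK31 hold 3 copies each, CRK32 and CRK9 hold 2 and CRK10 holds 1. CRK14 also holds 2, but 210 bases of its window lie inside the longer model that the authors used, so it is not shown. The core occurred in 7 of 7 windows of the listed CRKs, that of CRK14 included, with a mean of 2.71 copies. It occurred in 57.1% of all 63 members' windows and in 47.1% of the 34 with a kinase domain but no DUF26. Over 27443 promoters of protein-coding genes of the same length the share was 44.9% and the mean 0.633 copies. At least 3 copies were found in 42.9% of the CRK windows, 15.9% of all members' windows and 3.38% of all promoters. AT2G24130 and AT3G22060, lower with Cd in ein3eil1, hold 4 copies each. So does the pseudogene AT2G29010, whose log2 ratio was negative in Col. A link of copy number to the Cd response was not tested. Of the 7 CRKs, 5 lie in 1 array, and unlisted CRK genes were not set apart. ATGTA, the core letters bound by the EIN3 family, was found on either strand in 28.6% of the CRK windows, 41.3% of members and 52% of all promoters. A copy that overlaps another copy was counted too. A match is letters in a window, and binding was not measured.

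CRK14 had the largest ratio of all members. It stood at 3.18 RPKM (124 reads) in Col with Cd and 0.0224 RPKM (1 read) in Col control, 142-fold higher, and its interval runs from 25.0 to 5649. CRK32 had 3.30 RPKM (109 reads) with Cd and 0.0529 RPKM (2 reads) in the control, 62.4-fold with an interval from 16.9 to 521. Both genes had almost no reads in the untreated Col library, so the size of each fold rests on a handful of control reads. CRK17 had 2.97 RPKM with Cd and 0.151 RPKM in the control, on 155 and 9 reads.

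CRK10 and CRK11 were the CRKs with the highest levels. CRK10 had 18.6 RPKM in Col with Cd and 2.72 RPKM in Col control, 6.85-fold with an interval from 5.61 to 8.42. CRK11 had 26.2 RPKM with Cd and 5.89 RPKM in the control, 4.45-fold with an interval from 3.88 to 5.12. The 2 genes overlap at their ends on opposite strands in TAIR10.1. Their deposited models do not, as CRK10 ends at 12140921 and CRK11 starts at 12141032. The strand setting of the counting is not given. CRK31 had 2.92 RPKM with Cd and 0.573 RPKM in the control, 5.10-fold (3.18 to 8.50). CRK9, which has DUF26 but no annotated kinase domain, had 5.49 and 1.22 RPKM, 4.49-fold (2.87 to 7.27).

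Taken by domain rather than by name, 10 members carry DUF26, 4 of them with no kinase domain. This grouping was made after the values were seen. All 8 listed in Col were higher with Cd, where 52.9% of all listed models were. Their median log2 ratio was 2.56 and their summed level 123 RPKM against 39.7, and 7 of the 8 stayed above 0 after centring. In ein3eil1, 3 of 4 were higher and 1 was lower, beside 59.3% and 35.8% of all listed models. AT5G48540, a DUF26 protein with no kinase domain, had the highest level, 60.4 RPKM with Cd and 29.1 RPKM in the control of Col, and it was the one whose log2 ratio of 1.06 fell below 0 after centring. In ein3eil1 AT1G63600 had 3.85 RPKM with Cd and 0.838 RPKM in the control, and AT3G22060 was lower, with 3.71 and 7.63 RPKM. Of the 98 annotated DUF26 loci, 4.08% were listed in ein3eil1 and 8.16% in Col, beside the 3.48% and 2.79% of all protein-coding loci. For the 40 with a kinase domain the shares were 5% and 15%.

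**Figure D2:**
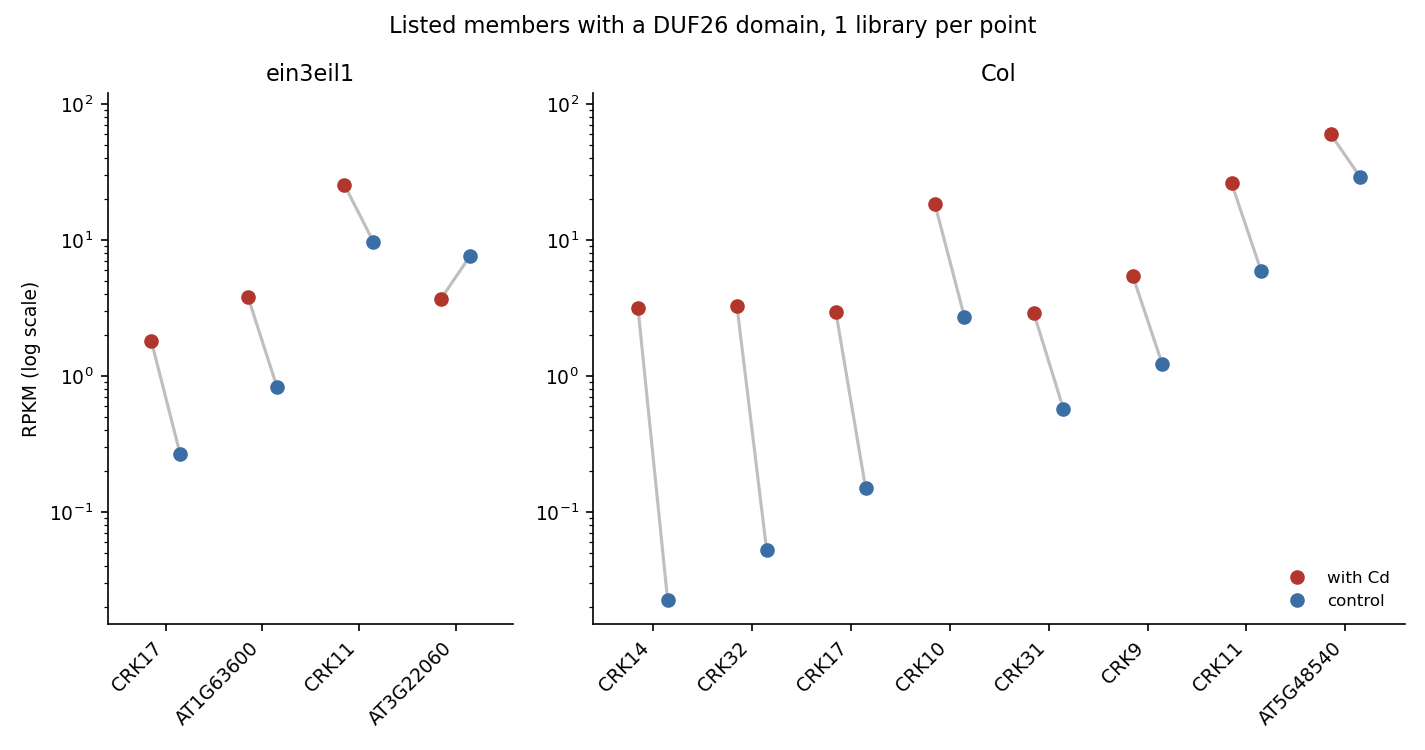
RPKM on a log axis of the listed members with a DUF26 domain, with Cd (red) and in the control (blue), in ein3eil1 (4 models) and Col (8 models). Each point is 1 library and a line joins the same model. In Col every red point lies above its blue point, and CRK14 has the lowest control value, 0.0224 RPKM.

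The listed CRK genes lie close together on chromosome 4. An array of 20 genes from CRK5 to CRK24 spans 74.2 kb and holds CRK9, CRK10, CRK11, CRK14 and CRK17, which are 5 listed genes in Col, and 2 in ein3eil1 (CRK11 and CRK17). A second array of 5 genes, CRK30 to CRK34, spans 26.3 kb and holds the neighbours CRK31 and CRK32, both listed in Col and neither in ein3eil1. The arrays CRK36 to CRK40 and CRK28 to CRK29 held 0 listed genes. Genes of such arrays are similar in sequence, and how reads that match several copies were counted is not given, so part of a member's reads could come from a neighbour. CRK17 also overlaps CRK16 on the same strand.

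**Figure D3:**
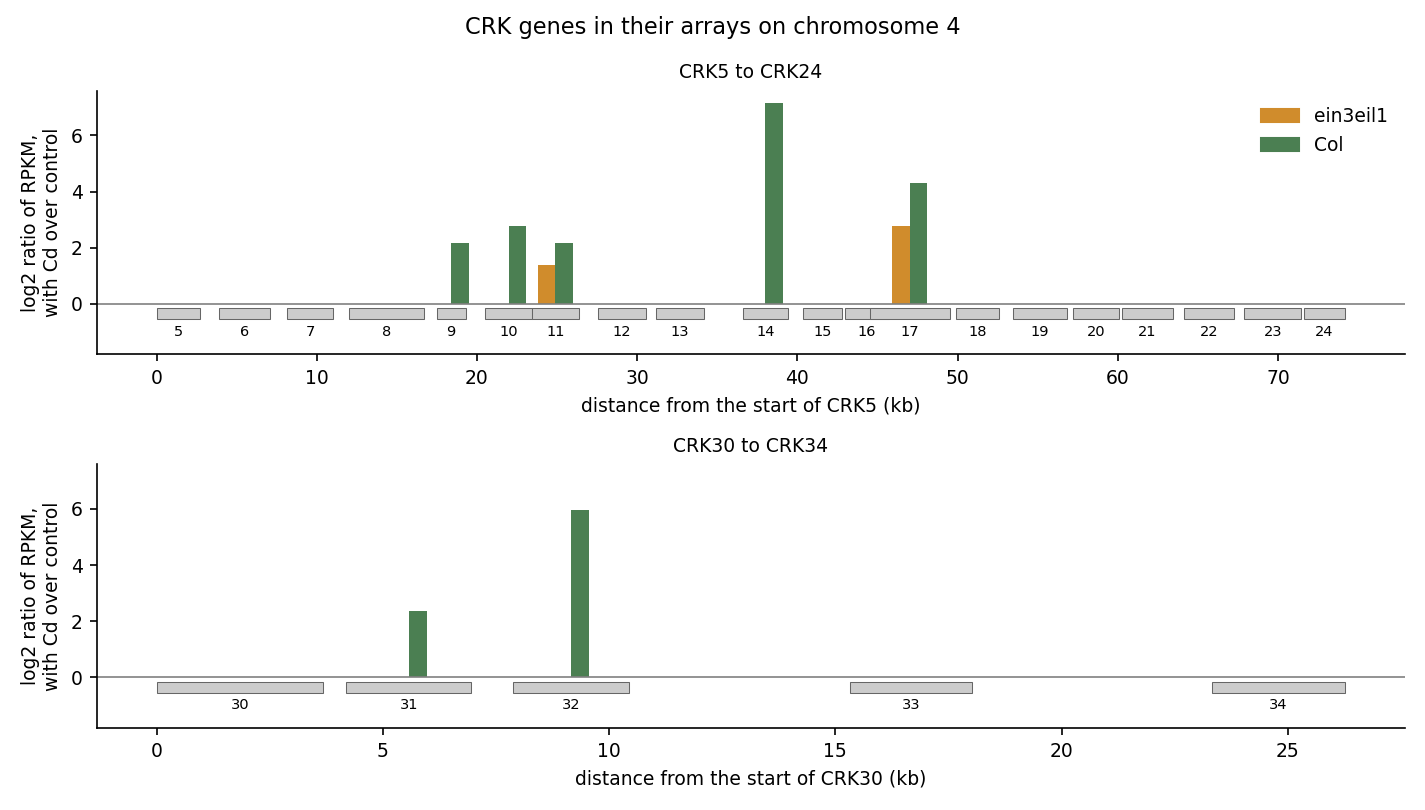
Log2 ratio of RPKM with Cd over control for the CRK genes of the 2 arrays on chromosome 4, against distance in kb from the start of the array. Grey boxes are annotated genes with their CRK numbers, bars are ratios in ein3eil1 (orange) and Col (green), and a gene with no bar is not listed, so its ratio is not known. Col has bars at 7 genes and ein3eil1 at 2.

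The listed lectin receptor-like kinases were all higher with Cd, where 59.3% of all listed models were higher in ein3eil1 and 52.9% in Col. In Col, LecRK-V.2 had 1.18 RPKM with Cd and 0.291 RPKM in the control, 4.06-fold with an interval from 2.04 to 8.78. LecRK-I.1 had 3.29 RPKM with Cd and 1.2 RPKM in the control, 2.75-fold (1.94 to 3.95). LECRKA4.2, named for its lectin-like outer part, was listed in both genotypes. It had 6.85 RPKM with Cd and 1.79 RPKM in the control of ein3eil1, and 1.96 and 0.706 RPKM in Col, so its untreated level in ein3eil1 was close to its level with Cd in Col. These are 1 and 3 listed genes of 45 annotated LecRK genes in ein3eil1 and Col. The shares listed of all protein-coding loci were 3.48% and 2.79%. WAK1, a pectin-binding wall-associated kinase, was listed only in the ein3eil1 table, at 0.667 RPKM with Cd and 0.154 RPKM in the control, below the level at which a model was counted. Of 5 annotated WAK genes it was the single one listed, and of 8 WAKL genes 0 were.

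Of the leucine-rich repeat kinases, 4 were listed in ein3eil1 and 5 in Col, and 1 was in both. Over all models, 290 were in both, of 1001 listed for ein3eil1 and 807 listed for Col. In ein3eil1 all 4 listed were lower with Cd, where 35.8% of all listed models were. Their median log2 ratio was -1.22 and their summed level 8.14 RPKM against 19.8 RPKM. In Col 3 were higher and 1 lower, beside 52.9% and 42.4% of all listed models. Their median was 1.11, and after centring 2 lay above 0 and 3 below, a pseudogene under 1 RPKM included. Only AT2G15300 was listed in both tables, and the others' levels in the second genotype are not known, so the classes were not compared gene by gene. In ein3eil1 AT2G24130 had 0.243 RPKM with Cd and 2.0 RPKM in the control, 8.24-fold lower with an interval from 4.51 to 16.5. AT2G15300 had 4.79 RPKM with Cd and 11.1 RPKM in the control of ein3eil1, and 3.81 and 11.6 RPKM in Col. It was thus lower in both genotypes and had the highest level of the class in ein3eil1. AT1G29740 had 1.58 and 3.69 RPKM, and AT1G07550 had 1.52 and 3.05 RPKM, in ein3eil1. In Col the 3 higher models were AT4G08850 (21.9 RPKM with Cd and 9.79 RPKM in the control), AT1G74360 (9.68 and 4.24 RPKM) and AT5G37450 (3.23 and 1.56 RPKM), all between 2.07-fold and 2.28-fold. These 3 lay little above the limit of the table. So did AT1G07550, AT2G15300 and AT1G29740 in ein3eil1, which were 2.01-fold, 2.31-fold and 2.33-fold lower. The pseudogene AT2G29010 stood at 0.0967 and 0.465 RPKM. FRK1, a leucine-rich repeat kinase by its domains though filed as receptor-like, had 1.02 RPKM with Cd and 0.347 RPKM in the control of Col, 2.92-fold (1.66 to 5.36). AT3G46270, described as related to receptor kinases, was lower in ein3eil1, with 2.13 RPKM with Cd and 6.58 RPKM in the control.

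Of 208 annotated loci with both leucine-rich repeats and a kinase domain, 1.44% were listed in ein3eil1 and 2.40% in Col. For all protein-coding loci the shares were 3.48% and 2.79%. Most well known receptor complexes are outside the tables. Of 37 entries for single receptors and partners, among them FLS2, EFR, BAK1, BRI1 and CERK1, 35 matched the annotation, and the listed ones were ETR2 in ein3eil1 and FRK1 in Col.

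The CBL-interacting and SNF1-related kinases act on ion transport, calcium signals and osmotic stress. Those listed were all higher with Cd, 4 of 4 in ein3eil1 (59.3% of all listed models) and 2 of 2 in Col (52.9%). CIPK14 had the highest level of them, 126 RPKM with Cd and 55.2 RPKM in the control of ein3eil1, and 66.7 and 28.9 RPKM in Col. CIPK15, its neighbour on chromosome 5, was listed in ein3eil1 only, with 1.64 RPKM (58 reads) with Cd and 0.168 RPKM (6 reads) in the control, 9.78-fold with an interval from 4.23 to 27.7. The first of these neighbours is abundant and the second had few reads. CIPK22 had 2.35 and 0.918 RPKM in ein3eil1, and 3.25 and 1.54 RPKM in Col. SNRK2.10, of the SnRK2 family of osmotic stress kinases, had 2.52 RPKM with Cd and 0.996 RPKM in the control of ein3eil1. Of 26 annotated CIPK genes 3 were listed in ein3eil1 and 2 in Col, while of the 10 CBL genes, which encode the calcium sensors that CIPKs bind, 0 were listed. No CPK gene, of 34 annotated, was listed in either table. Over all protein-coding loci, 3.48% were listed in ein3eil1 and 2.79% in Col.

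Of the MAP kinase cascade, 1 gene was listed, in ein3eil1. MAPKKK21 was lower in ein3eil1, with 1.79 RPKM with Cd and 5.80 RPKM in the control, 3.24-fold lower with an interval from 2.26 to 4.74. It was the only one listed of 21 annotated MAPKKK genes, and of 20 MPK and 10 MKK genes 0 were listed in either genotype. At the shares over all protein-coding loci, 3.48% in ein3eil1 and 2.79% in Col, sets this small would hold few listed genes. The 2 listed histidine kinases bind hormones. The ethylene receptor ETR2 had 0.741 RPKM with Cd and 1.93 RPKM in the control of ein3eil1, 2.61-fold lower (1.76 to 3.94). The cytokinin receptor WOL had 0.114 RPKM (7 reads) and 0.708 RPKM (44 reads), below 1 RPKM in both. Neither is listed in Col.

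Of the 18 unspecified protein kinases, 8 were listed in ein3eil1 and 12 in Col. In ein3eil1 5 were higher and 2 lower, beside 59.3% and 35.8% of all listed models. In Col 4 were higher and 6 lower, beside 52.9% and 42.4% of all listed models. STY46, a tyrosine kinase-like protein with an ACT domain, had the highest level of all members, 135 RPKM (4221 reads) with Cd and 339 RPKM (12076 reads) in the control of Col, 2.50-fold lower with an interval from 2.41 to 2.59. AT1G67000 had the largest ratio of the group, 2.51 RPKM with Cd and 0.313 RPKM in the control of Col, 8.01-fold (4.80 to 14.2). The lower models of Col included AT5G65530, with 13.1 RPKM with Cd and 26.9 RPKM in the control, and AT1G09440, with 2.17 and 4.35 RPKM. AT1G09440 lies beside the gene of Haspin, a histone kinase of mitosis, which was lower in both genotypes. In ein3eil1 the higher models were AT2G28940 (2.88 RPKM with Cd and 0.925 RPKM in the control), ATSK12, a kinase of the shaggy-like family (5.16 and 2.23 RPKM), AT5G51270, described with a U-box (6.63 and 2.87 RPKM), BSK9, of the brassinosteroid-signalling kinase family (11.1 and 5.38 RPKM), and AT1G26970 (12.7 and 6.15 RPKM). The log2 ratios of these 5 ran between 1.04 and 1.64, and 3 models of the group lay above 0 after centring. The remaining models of Col were AT1G66880, at 23.0 and 11.1 RPKM, AT1G72540, at 5.16 and 2.04 RPKM, EGM1, at 1.58 and 0.745 RPKM, and AT4G01330, at 1.26 and 2.60 RPKM. Under 1 RPKM in both libraries were AT1G72760 and AT5G58540 in Col and PERK2 in ein3eil1.

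The listed kinases of small molecules and lipids were more often lower than higher with Cd. In Col 4 of 4 were lower (42.4% of all listed models), with a summed level of 29.3 RPKM with Cd against 107 RPKM in the control. In ein3eil1 6 were lower and 4 higher (35.8% and 59.3% of all listed models), with 132 RPKM against 336 RPKM. The enzymes with the highest levels were among the lower ones. APK2 (APS kinase), which makes the activated sulfate used to sulfate metabolites such as glucosinolates, had 62.6 RPKM with Cd and 154 RPKM in the control of ein3eil1, and 21.0 and 70.2 RPKM in Col. Aspartate kinases open the pathway to lysine, threonine and methionine. AK3 had 14.5 RPKM with Cd and 72.8 RPKM in the control of ein3eil1, and 4.54 and 28.1 RPKM in Col. AK-HSDH, which joins aspartate kinase to homoserine dehydrogenase, had 35.9 RPKM with Cd and 87.0 RPKM in the control of ein3eil1, 2.42-fold lower (2.29 to 2.56). A further aspartate kinase, CARAB-AK-LYS, went the other way, with 1.36 RPKM with Cd and 0.421 RPKM in the control of ein3eil1, 3.22-fold (1.81 to 6.06), for 1 of the 3 transcripts of its gene.

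Mevalonate kinase MVK, of isoprenoid synthesis, had 3.33 RPKM with Cd and 7.28 RPKM in the control of ein3eil1, and MEE51, of the phosphofructokinase family, had 5.14 and 10.9 RPKM. Both were lower by a little over 2-fold. Of the 2 models named for phosphoinositide kinases, PI4K GAMMA 4 was lower at 0.541 and 1.40 RPKM, while PIP5K5, a phosphatidylinositol phosphate kinase, was higher at 2.26 and 0.894 RPKM. Xylulose kinase XK-2, of sugar metabolism, was also higher, at 3.59 RPKM with Cd and 1.51 RPKM in the control. MVK, MEE51, PI4K GAMMA 4, PIP5K5 and XK-2 are not listed in Col. In Col the other lower enzymes were GALK2, with 0.314 and 1.61 RPKM, and ITPK2, an inositol phosphate kinase, with 3.43 and 7.19 RPKM. Of the models that are no kinases, KRP5 had 17.2 RPKM with Cd and 7.48 RPKM in the control of ein3eil1, and NET3C, an actin-binding protein family member, had 0.383 and 1.89 RPKM.

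The 10 models listed in both tables allow the genotypes to be set side by side. All 10 went the same way in both, as did 89.0% of the 290 shared models, and 0 went opposite ways (9.31% of all shared). The 5 higher ones are CRK17, CRK11, LECRKA4.2, CIPK14 and CIPK22, and the 5 lower ones are Haspin, AT1G03920, AT2G15300, APK2 and AK3. Since both tables list only ratios of at least 2-fold, a gene that passed in 1 genotype alone is not among these 10.

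The log2 ratio of CRK17 and CRK11 was smaller in ein3eil1 than in Col. That is 2 of 10 members with a counting interval below 0, where 17.6% of all shared models had one. For CRK11 the difference, ein3eil1 minus Col, was -0.76 with an interval from -1.02 to -0.50. With Cd the 2 genotypes held much the same level, 25.5 RPKM in ein3eil1 and 26.2 RPKM in Col, a ratio of 0.973 (0.890 to 1.06). Without Cd, ein3eil1 held 9.71 RPKM and Col 5.89 RPKM, 1.65-fold higher in ein3eil1 (1.40 to 1.94). The ratio of the mutant was smaller and its untreated level higher. For CRK17 the difference was -1.52 with an interval from -2.78 to -0.26, on 95 and 14 reads in ein3eil1 and 155 and 9 reads in Col.

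AK3, APK2 and AT2G15300 had a larger, less negative log2 ratio in ein3eil1, which is 3 of 10 members beside 24.5% of all shared models. AK3 differed by 0.31 (0.04 to 0.58), APK2 by 0.44 (0.26 to 0.62) and AT2G15300 by 0.40 (0.03 to 0.77). Both enzymes were also higher in the untreated mutant. APK2 had 154 RPKM in ein3eil1 control and 70.2 RPKM in Col control, 2.19-fold (2.07 to 2.33), and AK3 had 72.8 and 28.1 RPKM, 2.59-fold (2.42 to 2.78). LECRKA4.2 was 2.54-fold higher in untreated ein3eil1 (1.60 to 4.12) and 3.49-fold higher with Cd (2.66 to 4.65), and its log2 ratios differed by 0.46 with an interval from -0.29 to 1.21. These 3 were at least 2-fold higher in the untreated mutant, beside 22.8% of all shared models, and 0 were at least 2-fold lower (14.8% of all).

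For the other 5 shared models the interval of the difference held 0. CIPK14 was 1.91-fold higher in untreated ein3eil1 (1.77 to 2.07) and its log2 ratios differed by -0.02 (-0.16 to 0.12), so its levels stood apart between the genotypes by about the same factor with and without Cd. CIPK22 differed by 0.28 (-0.52 to 1.07). Haspin had 3.66 RPKM with Cd and 7.36 RPKM in the control of ein3eil1, and 3.41 and 8.10 RPKM in Col. AT1G03920 had 3.65 and 9.48 RPKM in ein3eil1, and 2.85 and 7.15 RPKM in Col. In both models the Cd libraries lie below the control libraries of either genotype. At 1 library per group a difference between genotypes of this size cannot be set against the spread between plants.

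**Figure D4:**
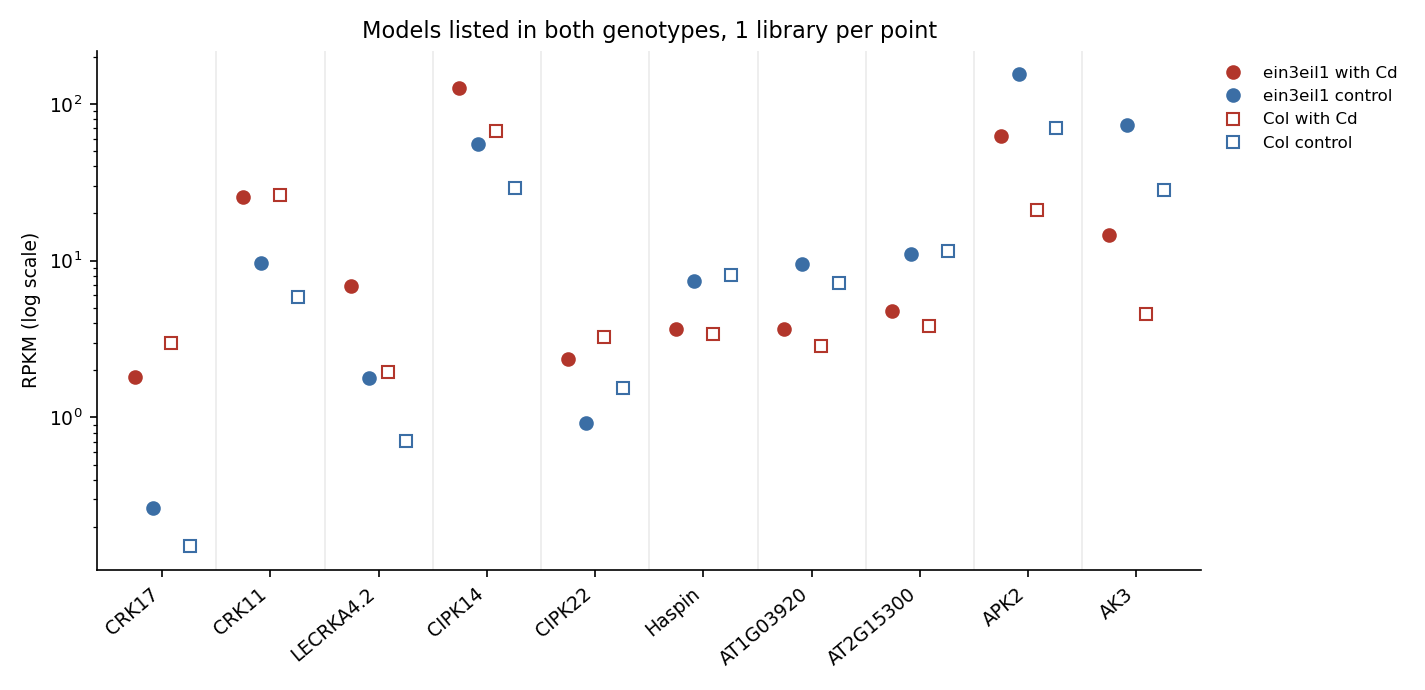
RPKM on a log axis of the 10 members listed in both tables. Filled circles are ein3eil1 and open squares Col, with Cd in red and control in blue, and each point is 1 library. CRK11 with Cd stands at 25.5 RPKM in ein3eil1 and 26.2 RPKM in Col, while APK2 and AK3 stand higher in both ein3eil1 libraries than in the Col library of the same treatment.

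Some further limits touch single members. Of the 63 loci, 12 overlap a coding gene on the opposite strand in TAIR10.1. Among them are CRK10, CRK11, FRK1, AK3, AK-HSDH, BSK9, MVK, AT1G74360 and AT1G66880. The deposited models of CRK10 and CRK11 do not overlap each other. Of all members, 27 loci have a single annotated transcript and the pseudogenes AT2G29010 and PERK2 have none. For the others the deposited model is 1 of several, and its count may share reads with the rest. In the deposited coordinates CRK14 runs on chromosome 4 from 12153956 to 12157091, CRK10 from 12138137 to 12140921, CRK11 from 12141032 to 12143833, CRK17 from 12162004 to 12167026 and CRK32 from 6971408 to 6973799. STY46 lies on chromosome 4 from 17999432 to 18003681 and APK2 on the same chromosome from 18519717 to 18521568, while CIPK14 lies on chromosome 5 from 313193 to 315000 and AK3 on chromosome 3 from 340546 to 343835. Read on TAIR10.1 at such coordinates, 56 of the 57 single-exon models of both tables with an open frame began with a start codon and ended with a stop codon. The build of the tables is not named.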

How the data were processed

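Per the file headers, each genotype has a table of its own in which the authors give for every listed model a read count and an RPKM for both libraries, a log2 ratio with Cd over control, a p-value and an FDR (a q-value). On the files, every deposited log2 ratio was that of the 2 RPKM entries, and RPKM was the count over model length and a constant for the library, from which the totals were taken. Random-primed cDNA was sequenced by Illumina HiSeq or another machine, per the labels' protocols. For aligner, genome build and strand setting, the entry is "not given in the sources used here".

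No pseudocount was added to the deposited RPKM before taking ratios. Ratio intervals come from the exact Clopper-Pearson interval at the 95% level of the Cd share of reads. Reads of amplified libraries are not independent molecules. Medians use models with 1 RPKM or more. Of 63 loci, 63 matched NCBI's TAIR10.1 annotation, which gave names, domains and promoters. Named were the members in both tables, the 4 largest ratios of each class and table, the 3 highest levels per table and listed members of fixed families. Other members were named to complete their class after their values were seen, as were the DUF26 group and the class by CRK symbol. Members and lists were chosen with earlier results of these data known. The values of 1 member are not reported here, and it stays in the counts. Protein sequences were not used here, so the planned search for kinase motifs was not run. The exact ratio intervals were tested on simulated data, and the intervals of a difference of log2 ratios were not. The simulated counts held counting error only, so the test cannot speak for amplified libraries or for the spread between plants. Alternatives were another fold, minimum, pseudocount, centring, FDR, 1 value per locus and protein kinases only. Software was matplotlib 3.10.9, SciPy 1.17.1, pandas 2.3.3 and numpy 2.4.6 under Python 3.11.15.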

Additional observations from a re-analysis of the deposited data

How the results depend on the processing

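None of the CRK and leucine-rich repeat medians changed sign, and the median of all members was not rerun. The balance of higher to lower members turned at some settings. Higher members outnumbered lower ones in both genotypes as reported. Lower ones outnumbered higher ones in ein3eil1 at 5 RPKM (8 to 11) and after centring (4 to 17), and in Col after centring (8 to 11). Centring by a positive median can only take members from the higher side, as no ratio lies between the thresholds. The turn after centring is therefore no result about the members. At 4-fold, 4 members were higher and 3 lower in ein3eil1, 9 higher and 2 lower in Col, 2 shared members went the same way and 0 were higher in the untreated mutant, as the stricter limit keeps fewer models. At 5 RPKM, ein3eil1 had 8 higher and 11 lower, Col had 9 higher, the CRK median of Col was 2.46 and 1 shared member had a smaller ratio in ein3eil1. With a pseudocount of 1 RPKM, ein3eil1 had 9 higher and 9 lower, Col had 13 higher and 6 lower, the CRK median of Col was 2.03, and 1 shared member each had a larger and a smaller ratio in ein3eil1. Centred ratios left 4 higher in ein3eil1 and 8 in Col, CRK medians of 0.23 and 1.72 and leucine-rich repeat medians of -2.38 and 0.05 in ein3eil1 and Col, 6 shared members going the same way and 1 with a larger ratio in ein3eil1. With protein kinases only, 9 were lower in ein3eil1 and 7 in Col, 1 had a larger ratio in ein3eil1 and 1 was higher in the untreated mutant, since APK2 and AK3 are left out. With the CRK class taken by symbol, an alternative added after the data were seen, the ein3eil1 median was 2.09. An FDR of 1e-05 left 15 higher and 14 lower in ein3eil1, 17 and 8 in Col, 8 shared members going the same way and 2 higher in the untreated mutant. With no minimum there were 19 higher and 19 lower in ein3eil1, and 22 and 13 in Col. All of these lie within 1.5 times the reported counts. Taking 1 value per locus left the counts and medians as reported. Differences of ratios and medians at 4-fold, and untreated levels under centring, were not run.

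No paired analysis was possible because each group had 1 library. Depth limits the low models: CRK14, CRK32 and AT5G58540 each had 3 reads or fewer in 1 library, and genes under the authors' limits are outside these tables.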
